A study of Homo sapiens with 3 samples.

Results

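The proteasome is the large protease that degrades ubiquitin-tagged proteins in the cytosol and nucleus. Its genes were taken as every row of the deposited expression table whose symbol is PSM followed by a letter from A to G and a number, which gave 47 genes of 17576 in all. They were read in LX-2, an immortal human cell line derived from hepatic stellate cells, which make scar matrix when the liver is injured. The groups were LX-2 kept for 48 h in the vehicle DMSO, in transforming growth factor beta 1 (TGF-b1), or in TGF-b1 plus 10 μM DP, a natural small molecule known here by that code alone. Each group was 1 library, so the values describe these 3 libraries, nothing below could be tested, and p-values are not given. The line models stellate cells in culture and not liver tissue, and in such bulk RNA fewer cells of a kind and less RNA per cell cannot be told apart.

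The core particle of the proteasome (20S) is a barrel of stacked rings of alpha and beta subunits, and the proteolytic sites sit on the beta subunits PSMB5, PSMB6 and PSMB7. The regulatory particle (19S), built from the PSMC ATPases and most PSMD proteins, binds, unfolds and threads the substrate, and dedicated chaperones (the PSMG genes and some PSMD genes) help to build the complex. In cells exposed to interferon, PSMB8, PSMB9 and PSMB10 take the places of PSMB5, PSMB6 and PSMB7 in newly made particles, giving the immunoproteasome, and the PSME1 and PSME2 activator changes which peptides are released for HLA class I presentation.

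Expression was given as FPKM, that is fragments scaled by transcript length and by the mapped total, so levels can be set side by side between genes. Differences are log2 of (FPKM + 1) in one library over (FPKM + 1) in another, which slightly understates those of low genes, and a gene counted as higher or lower at a difference of at least 1. Highest and lowest members are named on values as deposited unless said otherwise. Values corrected for length and GC had a fit on transcript length and GC content over all genes subtracted. Of the 47 members, 46 reached the mean of 1 FPKM over the libraries that was required, and PSMB11, the thymus-specific catalytic subunit, was listed at 0 in all 3. PSMA8 was not analysed here. Summed FPKM over all genes was 443566 with DMSO, 546754 with TGF-b1 and 429399 with TGF-b1+DP, and the 46 members held 1.17%, 1.35% and 1.26% of it. The sources used here give no depth, so no counting interval can be attached to a value. The line expressed VIM (1936 to 2800 FPKM) and COL1A1 (295 to 604 FPKM), the hepatocyte genes ALB and APOA1 were at or below 0.05 FPKM in every library, and CD3E was listed at 0. THY1, a fibroblast marker, was low (0.42 to 2.42 FPKM), and CD68, listed as a macrophage marker but made by other cells too, was at 21.3 to 54.8 FPKM. Of the other stellate markers COL1A2 (1.22 to 5.91 FPKM) and PDGFRB (5.24 to 6.53) were low, and ACTA2 was at 6.79 to 78.1. The immune marker CD14 was at 0.96 to 4.77 FPKM, and the endothelial marker PECAM1 reached 1.71 with TGF-b1+DP. PTPRC, VWF, CDH5, EPCAM and KRT19 were at or below 0.58 FPKM.

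Promoter letters are shown first because the results set interferon-inducible members beside the other subunits. RefSeq promoter windows (GRCh38.p14, 250 bases before to 50 after the annotated start) were found for 41 of the 47 members. They were searched on both strands for the interferon-stimulated response element written as GAAA, any 2 bases and GAAA, and 6 of 41 (14.6%) held it, against 3.65% of all 27305 promoters and 2.73% of those of measured genes. Of those 6, PSMA4 (GAAAATGAAA) and PSMB4 (GAAAAAGAAA) are constitutive 20S genes. In the other 4, PSMB10, PSME1, PSME2 and PSMG4, the match was the same run, GAAAGCGAAA, on one strand or the other. This run was picked after the matches were seen. It occurs in 30 of the 27305 promoters (0.11%) and in 20 of the 9401 that belong to measured genes (0.213%). The 4 promoters are printed 5′ to 3′ on the strand of the gene, from 250 bases before the start to 20 after it, with the match in capitals, to show its place close to the start.
PSMB10 (chr16:67936831-67937100, minus strand): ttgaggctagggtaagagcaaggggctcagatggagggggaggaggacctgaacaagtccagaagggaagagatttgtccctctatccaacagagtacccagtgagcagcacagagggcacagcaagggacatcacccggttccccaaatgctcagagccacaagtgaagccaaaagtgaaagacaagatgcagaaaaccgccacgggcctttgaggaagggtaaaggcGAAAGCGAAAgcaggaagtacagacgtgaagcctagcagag
PSME1 (chr14:24135944-24136213, plus strand): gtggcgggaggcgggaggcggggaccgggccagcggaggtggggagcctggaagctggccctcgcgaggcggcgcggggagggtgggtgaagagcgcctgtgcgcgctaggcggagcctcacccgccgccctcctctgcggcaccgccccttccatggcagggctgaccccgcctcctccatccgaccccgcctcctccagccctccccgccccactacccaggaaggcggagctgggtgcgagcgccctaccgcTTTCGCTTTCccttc
PSME2 (chr14:24146591-24146860, minus strand): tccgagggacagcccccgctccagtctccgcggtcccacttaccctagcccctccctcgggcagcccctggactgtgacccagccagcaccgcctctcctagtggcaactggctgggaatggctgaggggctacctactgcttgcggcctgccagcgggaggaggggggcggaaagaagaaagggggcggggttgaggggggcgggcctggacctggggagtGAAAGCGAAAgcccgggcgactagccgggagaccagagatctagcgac
PSMG4 (chr6:3258697-3258966, plus strand): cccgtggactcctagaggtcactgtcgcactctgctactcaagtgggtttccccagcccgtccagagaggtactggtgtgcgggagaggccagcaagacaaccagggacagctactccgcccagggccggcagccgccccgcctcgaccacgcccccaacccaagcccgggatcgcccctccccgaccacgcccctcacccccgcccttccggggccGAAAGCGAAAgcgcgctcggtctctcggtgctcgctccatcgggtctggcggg
The match began 21 bases before the start in PSMB10, 28 before it in PSME2 and 33 before it in PSMG4, and at base 6 after it in PSME1, where it lies on the opposite strand as TTTCGCTTTC. PSMB8 and PSMB9 held no match in this window. The gamma-activated site written as TTCNNNGAA was in 4 of 41 member promoters (9.76%, against 7.88% of all and 6.27% of measured genes), and the loose NF-kB form of GGG, any 5 bases and CC in 26 of 41 (63.4%, against 58.0% of all and 74.4% of measured genes). An NF-kB form overlapped the gamma-activated site of PSMD3. A match is a description of letters and not evidence that a factor binds there.

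The first comparison, TGF-b1 versus DMSO, concerns the response to the cytokine. Every constitutive 20S gene was more abundant in the TGF-b1 library, by 1.45 to 1.92 times, while the immunoproteasome genes differed by 1.04 to 1.16 times and the 19S genes went both ways. None of the 46 measured members reached a log2 difference of 1 in either direction, against 2.31% of measured genes higher and 6.73% lower by that amount. At the lower threshold of 0.5, 21 members were higher and 1 was lower (PSMD1), against 15.6% and 25.2% of 11327 measured genes. The member median was 0.42, against -0.10 over all measured genes, and 39 of 46 were above 0 (84.8%), against 42.6% of all.

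The alpha subunits form the outer rings and hold the gate of the barrel. PSMA2 was at 73.9 FPKM with DMSO, 142 with TGF-b1 and 77.9 with TGF-b1+DP, a log2 difference of 0.93 for TGF-b1 versus DMSO and -0.86 for TGF-b1+DP versus TGF-b1. PSMA6 was at 234, 356 and 251 FPKM in the same order (0.60 and -0.50). These are the alpha genes with the largest and smallest TGF-b1 differences as deposited. Once corrected for length and GC, PSMA1 was highest (0.45) and PSMA2 was at 0.37. As deposited, the TGF-b1 library was the highest of the 3 for each of the 7 alpha genes.
PSMA7 was the most abundant member in DMSO and TGF-b1, at 387 FPKM with DMSO, 671 with TGF-b1 and 341 with TGF-b1+DP, and it was the lowest alpha gene for TGF-b1+DP versus TGF-b1 (-0.97). PSMA1 stood at 95.3, 171 and 94.0 FPKM and PSMA3 at 104, 191 and 103. PSMA4, at 109, 201 and 108 FPKM, and PSMA5, the lowest alpha gene at 37.4, 60.8 and 40.7, completed the set. Although the rings hold equal numbers of each subunit, FPKM of the alpha genes spanned 10.3 times with DMSO, 11 with TGF-b1 and 8.39 with TGF-b1+DP. The lowest, PSMA5, has the longest transcript of the 7 (3.73 kb), and FPKM depends on the transcript length it assumes.

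Of the constitutive beta genes, PSMB1 had the largest TGF-b1 difference as deposited, at 314 FPKM with DMSO, 582 with TGF-b1 and 294 with TGF-b1+DP (0.89 for TGF-b1 versus DMSO, -0.98 for TGF-b1+DP versus TGF-b1). Once corrected for length and GC, PSMB1 was at 0.33 for TGF-b1 versus DMSO and PSMB2 was highest (0.73). The structural subunits PSMB3 and PSMB4 were at 286, 513 and 271 FPKM and at 279, 451 and 255. PSMB2, far lower and with a longer transcript (4.22 kb), was at 43.9, 69.5 and 43.6. The TGF-b1 library was again the highest of the 3 for each of these beta genes.
The catalytic genes followed the same order. PSMB5, which carries the chymotrypsin-like site, was at 132, 213 and 149 FPKM (0.69 and -0.51). PSMB6, with the caspase-like site, was at 182, 285 and 168 FPKM (0.64 and -0.76). PSMB7, with the trypsin-like site, was at 262, 379 and 288 FPKM (0.53 and -0.40), the smallest differences of the 14 constitutive 20S genes. Over these 14 the median for TGF-b1 versus DMSO was 0.74 with an SD over genes of 0.12, and all 14 were above 0 as deposited, under each of 3 other scalings of the libraries, and once corrected for length and GC (median 0.30, lowest PSMA6 at 0.0034, where 49.1% of measured genes were above 0).

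**Figure D1:**
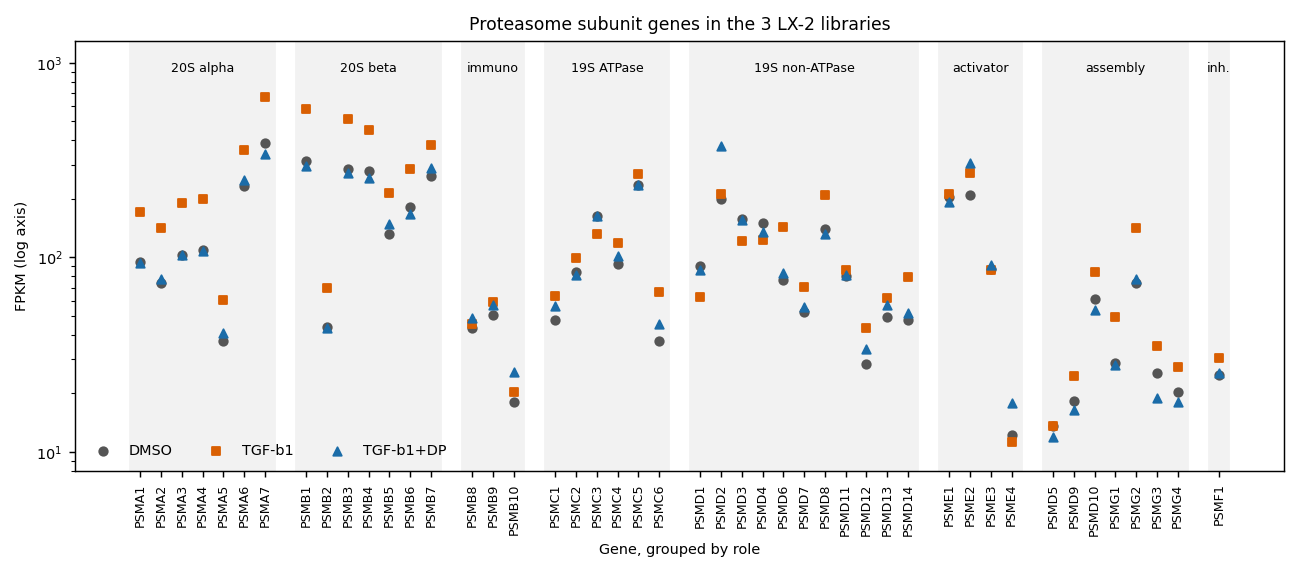
FPKM on a log axis for the 46 measured members, grouped by role, with 1 point per library (grey circles DMSO, orange squares TGF-b1, blue triangles TGF-b1+DP). The TGF-b1 square is the highest point for all 14 constitutive 20S genes, while PSMD2 stands highest in TGF-b1+DP at 375 FPKM.

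The 19S genes lay on both sides of 0. The 6 ATPases of the base ring unfold the substrate. PSMC6 was at 37.4 FPKM with DMSO, 66.7 with TGF-b1 and 45.3 with TGF-b1+DP (0.82 for TGF-b1 versus DMSO), the highest difference of this ring as deposited. Once corrected for length and GC, PSMC6 was at 0.23 and PSMC1 was highest (0.71). PSMC3 was at 164, 132 and 164 FPKM (-0.31), the lowest, so within a ring of 1 copy each the values lay on both sides of 0. PSMC1 was at 47.5, 63.3 and 56.6 FPKM, PSMC2 at 84.5, 99.5 and 81.6, PSMC4 at 92.7, 119 and 102, and PSMC5, the most abundant ATPase gene, at 237, 269 and 236.

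Among the 11 non-ATPase genes, differences for TGF-b1 versus DMSO ran from -0.52 to 0.90. PSMD1, a large scaffold of the base, was at 90.2 FPKM with DMSO, 62.7 with TGF-b1 and 86.6 with TGF-b1+DP (-0.52). PSMD3, a lid subunit, was at 158, 122 and 156 FPKM (-0.37), and PSMD4, a receptor for ubiquitin chains, at 151, 123 and 136 (-0.29). With PSMC3 these are the 4 core 19S genes below 0 in this comparison, and each was also below 0 under the 3 other scalings and, at -0.53 to -0.21, once corrected for length and GC.
Other lid genes lay above 0. PSMD6 was at 76.5, 144 and 83.2 FPKM (0.90), PSMD14, the deubiquitinase of the lid, at 47.6, 79.4 and 51.7 (0.73), and PSMD12, the lowest 19S gene, at 28.3, 43.5 and 33.8 (0.61). PSMD8 was at 140.3, 209 and 132 FPKM (0.57), and the partner of PSMD14 in the lid, PSMD7, at 52.6, 70.4 and 55.3 (0.41). PSMD13 (49.6, 61.7 and 57.3 FPKM) and PSMD11 (80.1, 86.1 and 81.7) showed smaller differences. The 17 core 19S genes had a median of 0.31 for TGF-b1 versus DMSO and an SD over genes of 0.43, against 0.74 and 0.12 for the 20S genes. With the libraries scaled to the same total FPKM the medians were 0.01 for 19S and 0.44 for 20S. Once corrected for length and GC the contrast was smaller, with medians of 0.23 and 0.30 and SDs of 0.38 and 0.19.

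PSMD2, the other large scaffold of the base and a docking site for ubiquitin-like proteins, was as deposited the highest member in both comparisons that hold the DP library. It was at 199.7 FPKM with DMSO, 212 with TGF-b1 and 375 with TGF-b1+DP. DMSO and TGF-b1 lay close together as deposited (0.09), but less so once corrected for length and GC (0.42). The TGF-b1+DP value was 1.88 times DMSO. The log2 difference was 0.82 for TGF-b1+DP versus TGF-b1, where 90.3% of measured genes lay below it, and 0.91 versus DMSO, where 97.2% did. It was 1.06 versus DMSO once corrected for length and GC, where 2.78% of measured genes reached 1. Within each library the ratio of PSMD2 to PSMD1, its structural counterpart, was 2.21 with DMSO, 3.38 with TGF-b1 and 4.33 with TGF-b1+DP, and the ratio to PSMD3 was 1.26, 1.74 and 2.41. These ratios do not depend on how the libraries are scaled.

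**Figure D2:**
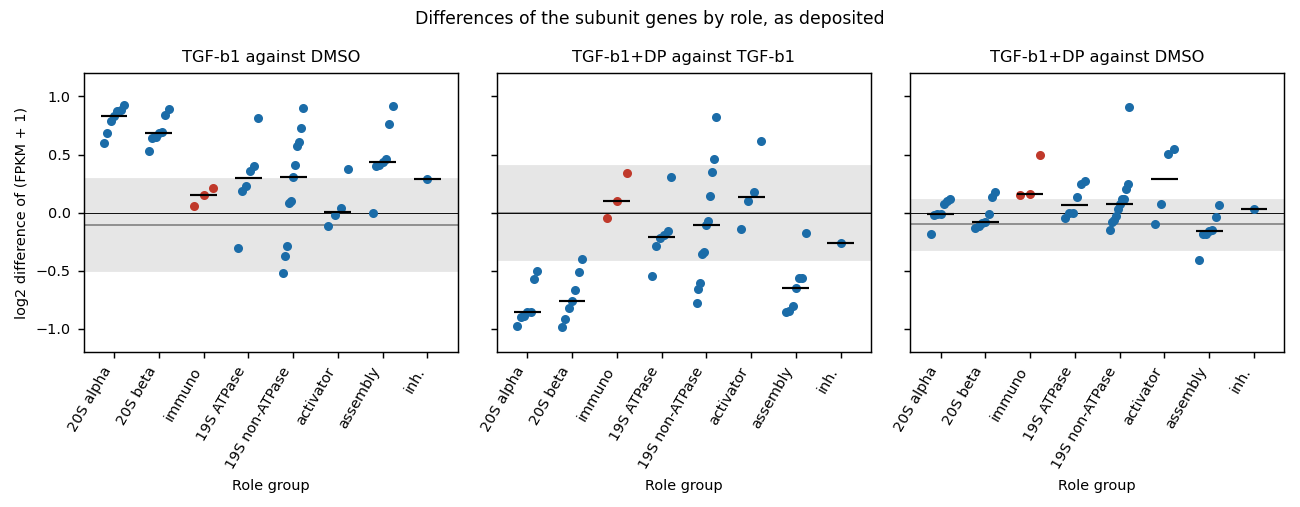
Log2 differences of (FPKM + 1) as deposited, by role group, for the 3 comparisons: each point is 1 gene (red for PSMB8, PSMB9 and PSMB10), black bars are group medians, the grey band spans the middle 50% of all measured genes and the grey line their median. In TGF-b1 versus DMSO the 20S alpha and beta points lie above the band, between 0.53 and 0.93, and the immunoproteasome points lie inside it.

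The immunoproteasome genes are set beside their constitutive counterparts. PSMB8 (chromosome 6, 32840717 to 32844703, GRCh38) was at 43.5 FPKM with DMSO, 45.4 with TGF-b1 and 48.6 with TGF-b1+DP. PSMB9 (chromosome 6, 32844136 to 32859585) was at 50.7, 58.7 and 56.8 FPKM, and PSMB10 (chromosome 16, 67934502 to 67937087) at 18.1, 20.2 and 25.9. All 3 were therefore expressed without added interferon, at levels below those of the genes they replace, and PSMB8 and PSMB10 were highest in TGF-b1+DP.
For TGF-b1 versus DMSO the differences were 0.06, 0.21 and 0.16 for PSMB8, PSMB9 and PSMB10. With the same total FPKM they were below 0 (-0.24, -0.09 and -0.13), and also once corrected for length and GC, so their own direction depends on the scaling. Their TGF-b1+DP versus TGF-b1 values were 0.10, -0.05 and 0.34, and PSMB9 was at 0.29 with the same total FPKM. In TGF-b1+DP versus DMSO they were 0.16, 0.16 and 0.50, above 0 under the 3 other scalings and after the correction.

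Ratios within a library remove the scaling. PSMB8 to PSMB5 was 0.331 with DMSO, 0.213 with TGF-b1 and 0.325 with TGF-b1+DP. PSMB9 to PSMB6 was 0.279, 0.206 and 0.337, and PSMB10 to PSMB7 was 0.069, 0.0534 and 0.0899. In each pair the TGF-b1 library had the lowest ratio. The immunoproteasome genes made up 16.3% of the summed FPKM of the 6 catalytic genes with DMSO, 12.4% with TGF-b1 and 17.8% with TGF-b1+DP.
Relative to the median of PSMB5, PSMB6 and PSMB7, the median of the immunoproteasome genes was -0.49 for TGF-b1 versus DMSO and 0.61 for TGF-b1+DP versus TGF-b1 on the log2 scale. These 2 values share the TGF-b1 library and are not independent of each other. The TGF-b1+DP versus DMSO value was 0.02. Once corrected for length and GC the values were -0.31, 0.72 and 0.09. In TGF-b1 versus DMSO, PSMB8, PSMB9 and PSMB10 differed little as deposited while PSMB5, PSMB6 and PSMB7 were 1.45 to 1.62 times as high. Which side of the ratios moved depends on the scaling and the correction. After the correction the former were at -0.14, -0.31 and -0.02 and the latter at 0.40, 0.17 and 0.04.

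The activators that cap the core particle also differed among themselves. PSME2 (chromosome 14, 24143362 to 24147570) was at 209.7 FPKM with DMSO, 272 with TGF-b1 and 307 with TGF-b1+DP, and its partner in the same ring, PSME1 (chromosome 14, 24136158 to 24138967), at 206, 211 and 192. PSME2 was thus lowest in DMSO and highest in TGF-b1+DP, while PSME1 ran from 192 to 211 FPKM. Their ratio was 1.02, 1.29 and 1.60 in the same order. The log2 differences for TGF-b1 versus DMSO were 0.37 for PSME2 and 0.04 for PSME1, the latter below 0 with the same total FPKM and once corrected. For TGF-b1+DP versus TGF-b1 they were 0.18 and -0.14, the latter above 0 with the same total FPKM and once corrected, and for TGF-b1+DP versus DMSO 0.55 and -0.10, the latter above 0 under median-of-ratios scaling and once corrected. PSME3, a nuclear activator that forms a ring of its own, was at 87.2, 85.8 and 91.8 FPKM, and PSME4, a single-chain activator, at 12.3, 11.3 and 17.8 (0.62 for TGF-b1+DP versus TGF-b1, 0.50 versus DMSO). PSME4 was the lowest activator for TGF-b1 versus DMSO (-0.11, above 0 under upper-quartile and median-of-ratios scaling and, at 0.12, once corrected, where PSME1 was lowest at -0.30). PSMF1, an inhibitor in vitro, was at 24.8, 30.6 and 25.4 FPKM (0.29 for TGF-b1 versus DMSO, and -0.26 for TGF-b1+DP versus TGF-b1, above 0 with the same total FPKM).

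**Figure D3:**
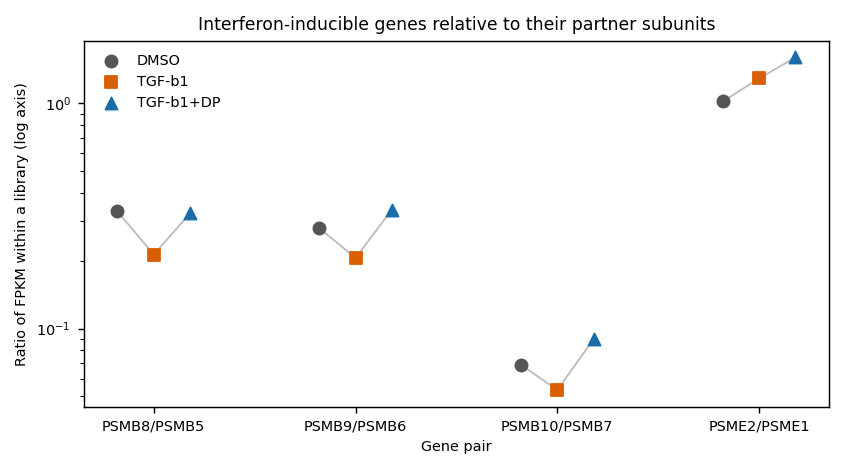
Ratio of FPKM between paired genes within each library, on a log axis, for the immunoproteasome genes over the subunits they replace and for PSME2 over PSME1 (grey circles DMSO, orange squares TGF-b1, blue triangles TGF-b1+DP). The 3 immunoproteasome ratios are lowest in TGF-b1, and PSME2/PSME1 runs from 1.02 in DMSO to 1.60 in TGF-b1+DP.

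Genes for assembly factors were mostly highest in the TGF-b1 library, as the 20S genes were. PSMG2, which with PSMG1 guides the first alpha ring, was at 74.1 FPKM with DMSO, 141 with TGF-b1 and 77.7 with TGF-b1+DP (0.92 and -0.85). PSMG1 was at 28.8, 49.5 and 28.0 FPKM (0.76 and -0.80). The second pair, PSMG3 and PSMG4, was at 25.6, 34.9 and 19 FPKM and at 20.4, 27.3 and 18.2, with PSMG3 the lowest member for TGF-b1+DP versus DMSO (-0.41).
Of the chaperones of the 19S base, PSMD10 was at 60.9, 84.5 and 53.6 FPKM, PSMD9 at 18.3, 24.6 and 16.4, and PSMD5 at 13.7, 13.6 and 11.9 (-0.00 and -0.18, the assembly gene with the smallest differences). The 7 assembly genes had a median of 0.43 for TGF-b1 versus DMSO and -0.65 for TGF-b1+DP versus TGF-b1. Once corrected for length and GC these were 0.55 and -0.55, the second the lowest of the role groups with more than 1 gene.

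The second comparison, TGF-b1+DP versus TGF-b1, concerns the compound given on top of the cytokine. All 14 constitutive 20S genes were lower in the library with DP, at 0.505 to 0.759 of the TGF-b1 level, while PSMD2, PSME4, PSMD1, PSMD3, PSMB10 and PSMC3 were the 6 highest members, from 0.82 down to 0.31. None of 46 members reached 1 in either direction, against 6.19% of measured genes higher and 4.26% lower. At 0.5, 2 members were higher (PSMD2 and PSME4) and 23 lower, against 20.2% and 20.6%. The member median was -0.45, against -0.00 over all genes, and 10 of 46 were above 0 (21.7%), against 49.7% of all. With the same total FPKM the member median was -0.10 and PSMD2 was at 1.17.
The 20S genes were below 0 under each of the 3 other scalings, and once corrected for length and GC 12 of 14 were, with PSMA6 (0.14) and PSMB7 (0.22) among the 48.5% of measured genes above it. The 19S median was -0.19, and above 0 with the same total FPKM (0.16) and after the correction (0.05). The ATPases ran from -0.55 (PSMC6, or 0.01 once corrected) to 0.31 (PSMC3) and the non-ATPases from -0.78 (PSMD6) to 0.82 (PSMD2). This comparison shares the TGF-b1 library with the one before, so a deviation of that library enters both with opposite sign.

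TGF-b1+DP versus DMSO does not use the TGF-b1 library except in the requirement on mean FPKM. All but 3 members lay within 0.5 of their DMSO level. The member median was 0.01, against -0.10 over all measured genes, and -0.00 without PSMD2. Of 46 members 23 were above 0 (50%), against 36.9% of all genes. None reached 1 in either direction, against 2.45% of genes higher and 2.88% lower. The 14 constitutive 20S genes ran from -0.18 (PSMA7) to 0.18 (PSMB5). The 3 members higher by 0.5 or more were PSMD2, PSME2 (0.55) and PSME4 (0.50), a share close to the 6.53% of all genes, and none was lower by that amount, against 13.8%. The ATPases ran from -0.05 (PSMC2) to 0.27 (PSMC6), and the non-ATPases from -0.15 (PSMD4) to 0.91 (PSMD2). Of the alpha genes PSMA5 (0.12) was highest, of the beta genes PSMB4 (-0.13) lowest, and of the assembly genes PSMG2 (0.07) highest. PSMF1 was at 0.04. The sign of such small values depends on the scaling: PSMA1, PSMA3, PSMA4, PSMB2, PSMC3, PSMC5, PSMD3 and PSMG1 were below 0 as deposited and above it under each of the 3 other scalings, and PSMB4 and PSMD4 were above it once corrected. The SD over members was 0.23, against 0.38 for TGF-b1 versus DMSO and 0.46 for TGF-b1+DP versus TGF-b1.

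Transcript length moved with both comparisons that hold the TGF-b1 library, and base composition with TGF-b1 versus DMSO and, less, with TGF-b1+DP versus DMSO. Over 11280 measured genes, which are not independent, the difference of TGF-b1 versus DMSO correlated with log2 transcript length at r = -0.449 and with GC content at -0.263. Over the 46 members the same values were -0.358 and -0.297. In TGF-b1+DP versus TGF-b1 the correlation with length was 0.502 over all genes and 0.409 over members, and with GC content 0.097 and 0.257. The TGF-b1+DP versus DMSO correlation over all genes was 0.106 with length and -0.191 with GC content. Subunit transcripts are short, with a median of 1.58 kb against 3.27 kb over measured genes, and those of the 20S beta genes shorter still (0.964 kb).
Differences were therefore also given after subtracting a fit on length and GC content over all genes. The member median for TGF-b1 versus DMSO was then 0.23 in place of 0.42, with an SD over members of 0.33 in place of 0.38. The TGF-b1+DP versus TGF-b1 median was -0.10 after the correction. PSMB8, PSMB9 and PSMB10 were then at 0.48, 0.65 and 0.75, the highest median of any role group (0.65), and PSME2 at 0.52.

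**Figure D4:**
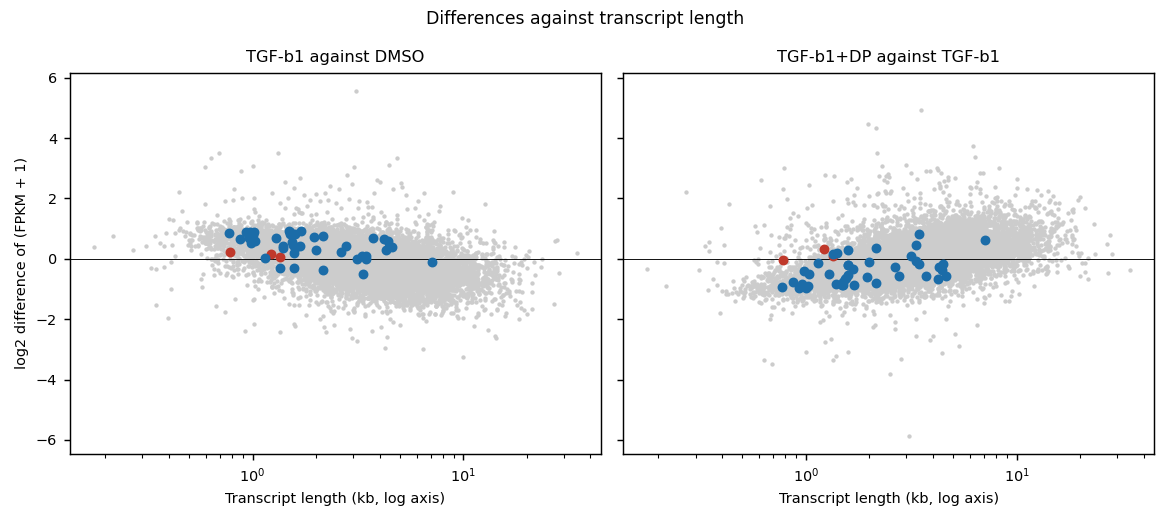
Log2 difference of (FPKM + 1) against transcript length in kb on a log axis, for all measured genes with a transcript in the annotation (light grey), subunit genes (blue) and PSMB8, PSMB9 and PSMB10 (red). The grey cloud slopes down in TGF-b1 versus DMSO (r = -0.449) and up in TGF-b1+DP versus TGF-b1 (r = 0.502), and most blue points lie at the short end.

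**Figure D5:**
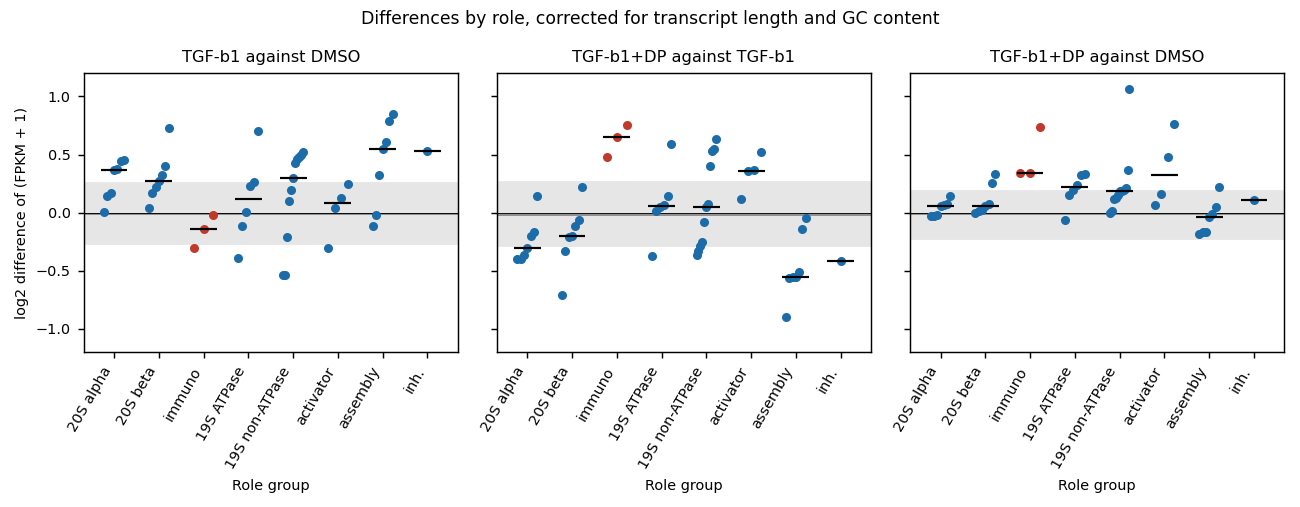
The same differences by role once corrected for length and GC, with points, bars, line and band as in the plot of deposited differences. In TGF-b1+DP versus TGF-b1 the 3 red immunoproteasome points lie above the band, from 0.48 to 0.75, and 5 of the 7 assembly genes lie below -0.5, as 12.5% of measured genes do.

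Other large complexes were set beside the subunits. The 78 cytoplasmic ribosomal protein genes had a median of 0.86 for TGF-b1 versus DMSO, the 37 NDUF genes of respiratory complex I 0.59, and the 8 genes of the CCT chaperonin, which folds actin and tubulin, 0.55, against 0.42 for the subunits and 0.74 for the 20S genes alone. After the correction these medians were 0.30, 0.18, 0.40, 0.23 and 0.30 in that order. Their TGF-b1+DP versus DMSO medians were -0.02, -0.21, 0.15, 0.01 and -0.01 as deposited. For TGF-b1 versus DMSO the ribosomal genes ran from 0.16 (RPL3) to 1.30 (RPL39), the NDUF genes from -0.20 (NDUFS1) to 1.10 (NDUFB4) and the CCT genes from 0.20 (CCT3) to 0.75 (TCP1). The 20S median was thus within the range of these other complexes, and no test of the difference between them can be made with 1 library per group.

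Proteins that work with the proteasome were read from a list. Of 14 partner genes 1 was higher in TGF-b1 than in DMSO by at least 1 and none lower, against 2.31% and 6.73% of measured genes. That gene was POMP, which drives the last steps of 20S assembly, at 76.8 FPKM with DMSO, 172 with TGF-b1 and 98.9 with TGF-b1+DP (1.15), or 0.33 once corrected for length and GC and 0.85 with the same total FPKM. Under median-of-ratios and under upper-quartile scaling 3 partners were higher, as 436 of 11319 and 451 of 11321 measured genes were. Once corrected, the only partner higher by at least 1 was TXNL1, a thioredoxin bound to the 19S particle (1.01, or 0.94 as deposited). There 241 of 11280 measured genes were higher. SEM1, a small 19S subunit outside the naming rule, was at 179.6, 355 and 198 FPKM (0.98), and ECPAS, which tethers 19S to 20S, was the lowest partner at 31.9, 19.8 and 35.1 (-0.66). In TGF-b1+DP versus TGF-b1 none of the 14 reached 1 as deposited, against 6.19% of measured genes higher and 4.26% lower. ECPAS was highest (0.80, or 1.13 with the same total FPKM). TXNL1, whose exons overlap another gene, was lowest (-0.97, or -1.10 once corrected and -1.05 under upper-quartile scaling). In TGF-b1+DP versus DMSO the partners ran from -0.33 (AKIRIN2, which brings proteasomes into the nucleus) to 0.54 (ZFAND5, a proteasome activator).
Of 6 ubiquitin and ubiquitin-activating genes 1 reached 1 for TGF-b1 versus DMSO and 1 for TGF-b1+DP versus TGF-b1, both higher (2.31% and 6.19% of measured genes were). RPS27A, which encodes ubiquitin fused to a ribosomal protein, was higher in TGF-b1 (631, 1342 and 689 FPKM, 1.09, or 0.51 once corrected for length and GC, with exons that overlap another gene) and the lowest of the 6 for TGF-b1+DP versus TGF-b1 (-0.96). UBA1, the main activating enzyme, was the lowest for TGF-b1 versus DMSO (-0.62). UBA6, an activating enzyme, was higher in TGF-b1+DP than in TGF-b1 (13.7, 10.1 and 25.3 FPKM, 1.25) and the highest versus DMSO (0.84), where UBB, a polyubiquitin gene, was lowest (-0.19).

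NFE2L1 encodes the factor that raises transcription of subunit genes when proteasome activity is short, after the peptidase DDI2 has cut it. NFE2L1 was at 81.3 FPKM with DMSO, 36.1 with TGF-b1 and 137 with TGF-b1+DP. TGF-b1 was the lowest library and TGF-b1+DP the highest, whereas each constitutive 20S gene was highest in TGF-b1. The log2 differences were -1.15 for TGF-b1 versus DMSO and 1.90 for TGF-b1+DP versus TGF-b1, or -0.59 and 1.48 once corrected for length and GC, and 0.75 for TGF-b1+DP versus DMSO. DDI2, whose exons overlap another gene, was at 3.53, 2.38 and 5.99 FPKM (1.05 for TGF-b1+DP versus TGF-b1). The related factor NFE2L2 was at 18.5, 27.0 and 17.6 FPKM (0.52 and -0.59). NGLY1, which removes sugars from NFE2L1, was the lowest of this list for TGF-b1+DP versus DMSO (-0.32). Of the 6 genes on this list 1 was lower in TGF-b1 than in DMSO (6.73% of measured genes were) and 2 higher in TGF-b1+DP than in TGF-b1 (6.19% were). Once corrected for length and GC, none was lower and 1 higher, where 199 and 350 of 11280 measured genes were, with DDI2 at 0.52. DDI2 was also below 1 under upper-quartile scaling. The core of the element these factors bind, written as TGACNNNGC and searched on both strands, was in 13 of 41 member promoters (31.7%), against 13.6% of all promoters and 15.1% of those of measured genes. Of the 26 constitutive 20S and 19S promoters 5 held it (19.2%), against 3 of 4 for the activators and 4 of 6 for the assembly genes. PSMB3 held it as TGACTTTGC and PSMD12 as TGACGCTGC, and none of the 6 alpha promoters in the table held it. In PSME1 it overlapped the loose NF-kB form.

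The immunoproteasome genes lie in the interferon and class I peptide pathway. Of 14 genes of that pathway none reached 1 for TGF-b1 versus DMSO (2.31% of measured genes were higher and 6.73% lower). For TGF-b1+DP versus TGF-b1 4 were higher (6.19% of measured genes were), and for TGF-b1+DP versus DMSO none reached 1 (2.45% higher and 2.88% lower). With the same total FPKM 1 was lower for TGF-b1 versus DMSO (TAP2, -1.22), as 1559 of 11320 measured genes were. Under median-of-ratios scaling 1 was higher for TGF-b1+DP versus DMSO (ERAP2, 1.02), as 327 of 11319 were. The 4 became 3 once corrected for length and GC or under upper-quartile scaling, and 5 with the same total FPKM. Over all measured genes 350 of 11280, 602 of 11321 and 1433 of 11320 were higher in those settings. Among the 4 were TAP2, a peptide transporter subunit (31.8, 16.2 and 47.8 FPKM, 1.51), and ERAP1 and ERAP2, which trim peptides (1.32 and 1.07). The pathway median for TGF-b1+DP versus TGF-b1 was 0.45, against 0.10 for PSMB8, PSMB9 and PSMB10, but the order turned once corrected for length and GC (0.55 against 0.65). B2M, the light chain of class I molecules, was the lowest of the 14 in that comparison (-0.17, above 0 once corrected) and the highest for TGF-b1 versus DMSO (0.58, below 0 once corrected), where TAP2 was lowest (-0.94). For TGF-b1+DP versus DMSO the range was -0.18 (HLA-E) to 0.91 (ERAP2). TAP1, which lies next to PSMB9 on chromosome 6, was at 36.9, 34.3 and 51.1 FPKM (0.56), and ERAP1 has exons that overlap another gene.

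Some member values are less certain because reads can be shared. The exons of 11 members overlap another of the 17576 genes, measured or not, over 100 bases or more: PSMB8 and PSMB9 overlap each other, and PSMC1, PSMC5, PSMD1, PSMD9, PSMD13, PSME2, PSME3, PSMG2 and PSMG4 overlap other genes. The member median for TGF-b1 versus DMSO was 0.60 without these 11, and -0.55 for TGF-b1+DP versus TGF-b1. A further set of 9 members, some of them the same, matches an annotated transcript not assigned to any of the 17576 genes, at 97% identity or more over at least 200 bases, among them PSMA6 (PSMA6P1) and PSMD4 (PIPSL).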

How the data were processed

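The authors deposited 1 table of FPKM values to 2 decimals, 1 column per library, per the file headers. Per the submitters' processing notes GRCh38.p13 was the build, and Cuffdiff, Cufflinks, Bowtie and BWA were among the tools; the sources used here do not give their roles, versions, strand setting or filters. Of 17596 lines 20 carried annotation text and were left out. Differences used a pseudocount of 1 FPKM, the 11327 genes averaging 1 FPKM or more and a threshold of 1 on the log2 scale, with values as deposited.

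FPKM times length in short low genes clustered only weakly at a common step (strength 0.23 to 0.28, where 1 is complete), so fragment numbers were not recovered. Length, GC content and positions came from GENCODE release 29 (GRCh38) through Entrez identifiers (17336 of 17576 genes, and all 47 members), using the longest transcript matched to a RefSeq mRNA where there was one. The correction subtracted a quadratic fit in log2 length and GC content over 11280 genes. It was run on simulated data with a bias linear in both and with changed genes drawn at random. That could not show whether it also removes real changes shared by short transcripts. Shared reads were found with bedtools 2.31.1 and minimap2 2.31. Other software was matplotlib 3.10.9, scipy 1.17.1, pandas 2.3.3 and numpy 2.4.6 under Python 3.11.15.

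The members, gene lists and comparisons were chosen with earlier results of these data known. Every member was named with its values; differences were given for PSMB8, PSMB9, PSMB10, PSME1 and PSME2, for members at 1 or more, and for the highest and lowest of each role group, and of other lists for genes at 1 or more and the extremes (for ribosomal and NDUF genes, the median and extremes of 1 comparison), with further members added after their values were seen. One gene that this rule names is not reported here. The alternatives tried were a pseudocount of 0.1, no filter or a mean of 5 FPKM, the same total FPKM, median-of-ratios and upper-quartile scaling, the correction, leaving out members that share reads, and a threshold of 0.5.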

Additional observations from a re-analysis of the deposited data

How the results depend on the processing

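The member median kept its sign for TGF-b1 versus DMSO (0.13 to 0.60) and for TGF-b1+DP versus TGF-b1 (-0.55 to -0.10) under every alternative run, including leaving out PSMD2, which was chosen after seeing the data. Its TGF-b1+DP versus DMSO value lay near 0 (-0.01 to 0.14). The immunoproteasome median minus that of the constitutive counterparts kept its sign in all 3 comparisons, from -0.50 to -0.31, from 0.60 to 0.85 and from 0.02 to 0.36. Scaling a library shifts both medians alike and the filters remove none of these genes, so those alternatives could hardly move it. The length and GC correction and leaving out members that share reads could. Without those members it rests on PSMB10 alone. Single genes were tallied only for PSMB8, PSMB9, PSMB10, PSME1, PSME2 and the highest and lowest of each role group. Among their values under alternatives, 13 passed the threshold in the same direction. Another 7 of their values moved furthest, all under the length and GC correction and without passing it. Of these PSMA6, PSMB7 and PSMB9 changed sign for TGF-b1+DP versus TGF-b1. Members outside the tally also moved: for TGF-b1 versus DMSO PSMA3 went from 0.88 to 0.14 once corrected. PSMA4 went from 0.88 to 1.00 under median-of-ratios scaling. No member was past the threshold as deposited, so none could lose a call.

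The count of members at or past the threshold was 0 in both directions as reported. For TGF-b1 versus DMSO the count higher was 5 under median-of-ratios scaling and 6 under upper-quartile scaling. Over all measured genes 436 of 11319 and 451 of 11321 were. With the threshold of 0.5 the count was 21 higher and 1 lower, against 15.6% and 25.2% of measured genes. In TGF-b1+DP versus TGF-b1 it was 1 higher with the same total FPKM, where 1433 of 11320 measured genes were. It was 2 lower under upper-quartile scaling, where 644 of 11321 were, and 2 higher and 23 lower at 0.5 (20.2% and 20.6%). The TGF-b1+DP versus DMSO count was 1 higher under median-of-ratios scaling (327 of 11319 measured genes) and 1 once corrected for length and GC (2.78%), and 3 at 0.5 (6.53%). Scaling to the same total FPKM put the all-gene median at -0.37 for TGF-b1 versus DMSO, against -0.10 as deposited, and 0.29 for TGF-b1+DP versus TGF-b1. No paired analysis was possible because each group holds 1 library and no test was made. Leaving out a replicate was not possible for the same reason, and with unknown depth small differences cannot be told from counting error.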
